A study of Mus musculus with 2 samples.

Results

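The integrated stress response and the amino acid synthesis genes downstream of it were followed as a set of 35 mouse genes. The set was listed by known function and chosen with earlier results of these data known. It held transcription factors, their feedback regulators, enzymes of amino acid synthesis, amino acid transporters, aminoacyl-tRNA synthetases and secreted factors. Of the 35 genes, 34 had a named probe among the 20655 genes on the array. Of these, 33 were measured, meaning well above background, on both arrays, out of 16885 measured genes in all. In the integrated stress response, kinases that sense amino acid shortage, unfolded protein in the endoplasmic reticulum, viral RNA or haem shortage and mitochondrial stress phosphorylate the initiation factor eIF2, which lowers translation in general and raises that of the transcription factor ATF4. ATF4, with partners of the C/EBP family, then activates genes for amino acid synthesis, uptake and tRNA charging, together with regulators such as CHOP and TRIB3. Macrophages are known to use the pathway in nutrient, endoplasmic reticulum and mitochondrial stress.

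RAW264.7 is a macrophage-like line from a tumour that Abelson murine leukemia virus induced in an adult male BALB/c mouse. One culture received vehicle and the other received 10 μM IR-61, a near-infrared fluorescent heptamethine cyanine dye that goes to mitochondria, both for 24 h. The conditions shared the cell line and the medium, and total RNA of each was labelled with Cy3 and hybridized to 1 Agilent single-colour array. With 1 array per condition there was no replicate and no test between conditions, so every difference compares 2 cultures, and fewer cells expressing a gene cannot be told apart from less RNA per cell.

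Signal is given as the background-subtracted intensity before scaling, and a difference is the log2 signal with IR-61 minus that with vehicle after the 75th percentile of each array was subtracted. That percentile was 10.30 with vehicle and 10.79 with IR-61 on the log2 scale, so a gene of equal signal on both arrays has a negative difference. The median difference of all measured genes was 0.10. The error beside a difference is an SD derived from how far repeated spots of one probe differed, for probes printed 10 times on an array, and covers noise within an array only. Of 10 macrophage markers, 9 had a probe and all 9 were measured, at signals from 790 to 149992. By 1.5-fold or more, 2 of them were lower with IR-61, *Cd14* (1.97-fold) and *Spi1* (1.78-fold). By the same limit 3 were higher, *Adgre1* (2.04-fold), *Fcgr1* (1.99-fold) and *Itgam* (1.57-fold). Markers of other cells ranged from undetected to bright. The T cell genes reached at most 1354 with vehicle and 2003 with IR-61, both for *Cd4*. That was above the 75th percentile of each array and above the macrophage gene *Spi1*, at 1002 and 790. The B cell genes reached at most 353 and 248, and neither *Cd3g* nor *Epcam* was well above background. The fibroblast gene *Pdgfra* read 860 and 1515 (a difference of 0.33). The collagen genes *Col1a1*, at 27148 and 58670, and *Col1a2*, at 15029 and 22576, were bright for a macrophage line, as was the granulocyte receptor gene *Csf3r*, at 29602 and 42454. The other neutrophil genes measured were *S100a8*, at 4879 and 9020 (a difference of 0.40), *Mmp8*, at 1017 and 2352 (0.72), and the dim *S100a9*, at 16.5 and 35.8 (0.63). The part of such transcripts in the results was not tested.

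ATF4 and its C/EBP partners bind a composite element whose core can be written TGATGNAA, with N for any base. It was searched on both strands, where it reads TTNCATCA on the opposite one, in the RefSeq promoter table of assembly GRCm38.p6, from 250 bases before to 50 after each listed start. Of 30 members with a promoter in the table, 10 held it (33.3%), against 1219 of all 27025 genes of the table (4.51%). They were *Atf3*, *Trib3*, *Nupr1*, *Asns*, *Pycr1*, *Slc7a11*, *Aars*, *Gars*, *Fgf21* and *Vldlr*. The windows of 5 of them are shown because their mRNAs ranged from the largest fall among the members to a small positive difference. Each is written 5′ to 3′ on the strand of the gene, with the matched letters in capitals. The *Nupr1* window is chr7:126625543-126625610 on the minus strand, the *Aars* window chr8:111033700-111033767 on the plus strand, the *Asns* window chr6:7693210-7693262 on the minus strand, the *Slc7a11* window chr3:50443623-50443709 on the minus strand and the *Atf3* window chr1:191183406-191183473 on the minus strand.
Nupr1: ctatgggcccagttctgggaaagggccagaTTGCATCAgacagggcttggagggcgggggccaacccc
Aars: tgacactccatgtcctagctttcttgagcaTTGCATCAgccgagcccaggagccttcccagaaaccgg
Asns: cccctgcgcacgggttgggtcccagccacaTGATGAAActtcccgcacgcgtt
Slc7a11: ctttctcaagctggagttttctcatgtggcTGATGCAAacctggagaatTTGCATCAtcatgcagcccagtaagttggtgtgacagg
Atf3: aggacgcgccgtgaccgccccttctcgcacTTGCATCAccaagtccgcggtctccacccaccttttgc
Counted from the listed start, the match began at position −110 in *Nupr1* and *Atf3*, at −112 in *Aars* and at −23 in *Asns*, and *Slc7a11* held 2 matches, at −66 and −47. *Aars* held a further match at 10, beyond the window shown. A match of these letters describes the sequence and is not a bound site. The members were listed by known function in the response that ATF4 serves, so their share of matches is not independent of that choice.

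The members were lower with IR-61 more often than higher, and the falls were the larger ones. Of the 33 measured members 23 were lower and 10 higher, with a median difference of −0.38, which is −0.48 relative to the median of all genes. 24 members lay below the all-gene median and 9 above it. A fall of 2-fold or more was found in 6 members (18.2% of those measured), *Nupr1*, *Trib3*, *Mthfd2*, *Ddit3*, *Aldh18a1* and *Slc7a1*, against 1.39% of all measured genes (235 of 16885). A rise of that size was found in 1 member, *Vldlr* (3.03%), against 1.99% of all genes (336). At 1.5-fold, 11 members were lower (33.3%), against 5.69% of all genes (960), and 2 were higher (6.06%), *Sesn2* and *Vldlr*, against 9.79% (1653). The share of members past either limit was thus above that of all genes on the lower side. On the higher side the counts of members are too small to set apart from it. Because the members were chosen with earlier results of these data known, these shares describe the set and are no test of it. Without scaling between the arrays the median of all genes moved from 0.10 to 0.59, and 14 members were lower and 19 higher, while 24 still lay below the all-gene median. The members that turned positive were *Atf4*, *Slc7a11*, *Nars*, *Gars*, *Sars*, *Stc2*, *Eif4ebp1*, *Psat1* and *Wars*. Without scaling 4 members were lower by 2-fold or more, since *Aldh18a1* and *Slc7a1* no longer passed, and 6 by 1.5-fold or more. Leaving the scaling out shifts every gene by the same 0.49, so differences relative to the all-gene median do not depend on it.

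**Figure D1:**
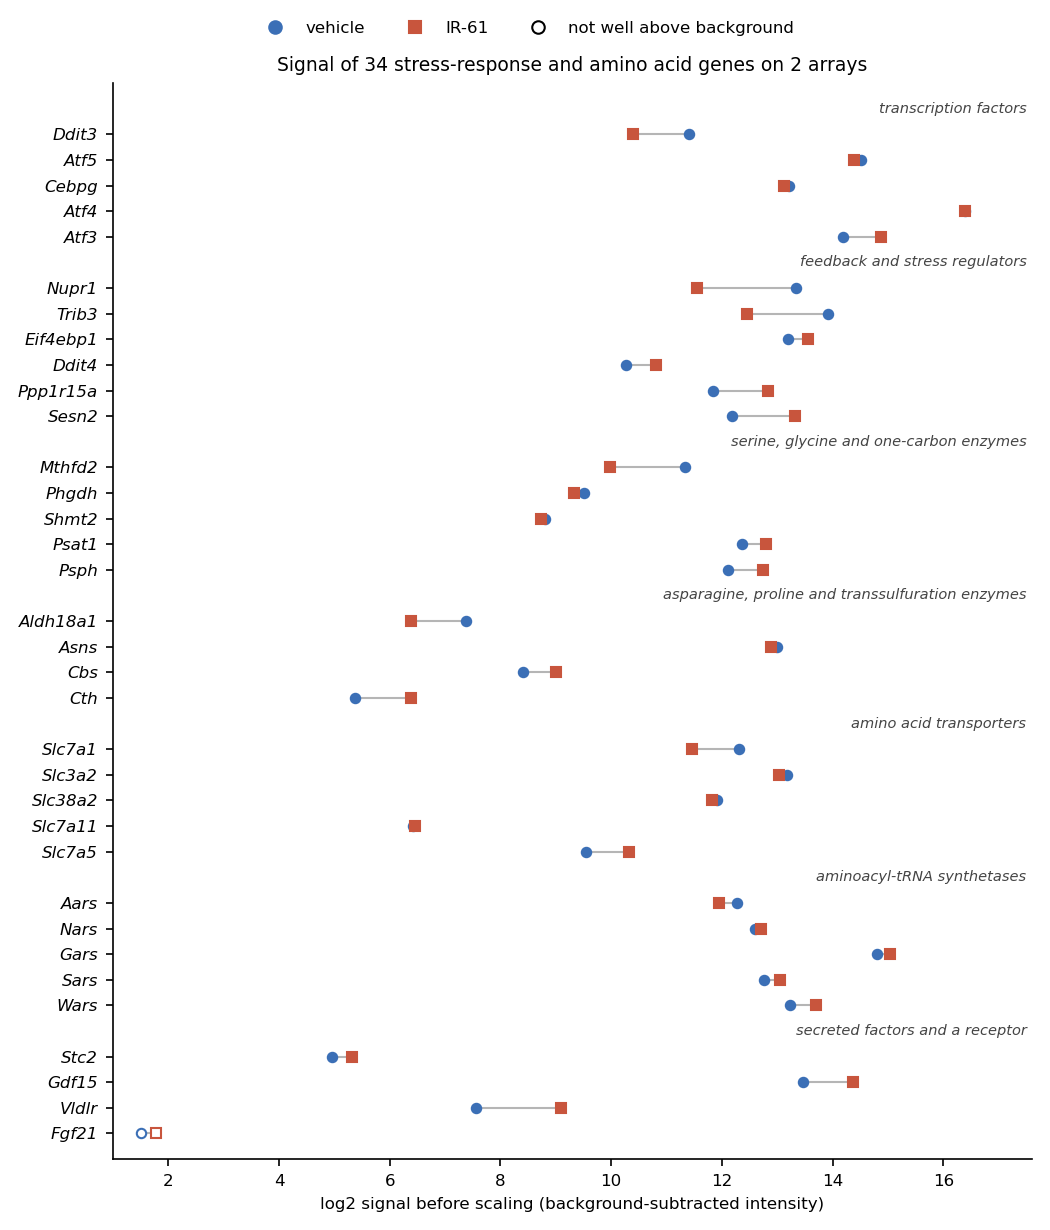
Log2 signal before scaling (x axis) of the 34 members with a probe, on the vehicle array (blue circles) and the IR-61 array (red squares), grouped by role and ordered within a group by the scaled difference. Open symbols mark *Fgf21*, which was not well above background; a red square to the left of its blue circle, widest for *Nupr1*, *Trib3* and *Mthfd2*, is a signal that was lower with IR-61 even before scaling.

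Among the transcription factors of the response, the CHOP gene was the one that was lower by most. *Ddit3*, which encodes CHOP, a factor linked to cell death in prolonged stress, read 2701 with vehicle and 1347 with IR-61, a difference of −1.49 ± 0.09 (2.81-fold lower). *Atf5*, a factor of the mitochondrial unfolded protein response, read 23247 and 21494, a difference of −0.60 ± 0.09 (1.52-fold lower). *Atf4* itself had nearly the same signal on both arrays, 85858 with vehicle and 86349 with IR-61, which after scaling was a difference of −0.48 ± 0.09 (1.39-fold lower), and 0.01 without scaling. A second, dimmer *Atf4* probe read 2092 and 1312, a difference of −1.16. Both probes lay below the all-gene median, but they did not give the same size. ATF4 is regulated mainly in translation, which these arrays did not measure. *Cebpg*, a C/EBP partner of ATF4, had a difference of −0.57. *Atf3*, a stress-induced factor of the same bZIP family, was the only one of the 5 with a positive difference. It read 18630 and 30156 before scaling, and its difference was 0.21 ± 0.09 (1.15-fold higher), which is 0.11 above the all-gene median. The median of the 5 factors was −0.57.

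The feedback and stress regulators were split, holding both the furthest falls of the whole set and some of its rises. *Nupr1*, a small stress-induced chromatin protein, read 10352 with vehicle and 2997 with IR-61, a difference of −2.28 ± 0.09 (4.85-fold lower) that was number 21 of 16885 genes counted from the largest fall. *Trib3*, a pseudokinase that binds ATF4 and restrains it, read 15439 and 5581, a difference of −1.96 ± 0.09 (3.88-fold lower, number 30). Both signals on the IR-61 array were below those on the vehicle array by more than the error under every scaling. In the other direction, *Sesn2*, a leucine-sensing inhibitor of mTORC1, read 4652 and 10248, a difference of 0.65 ± 0.09 (1.57-fold higher). *Ppp1r15a*, which encodes GADD34, the phosphatase subunit that removes phosphate from eIF2, was at 0.50. *Ddit4*, another inhibitor of mTORC1, at 0.06, and *Eif4ebp1*, which encodes a repressor of cap-dependent translation, at −0.12, differed by less than 1.5 times the spot error. The median of the 6 was −0.03, so the group as a whole stood 0.13 below the all-gene median, and at that median after another background correction.

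**Figure D2:**
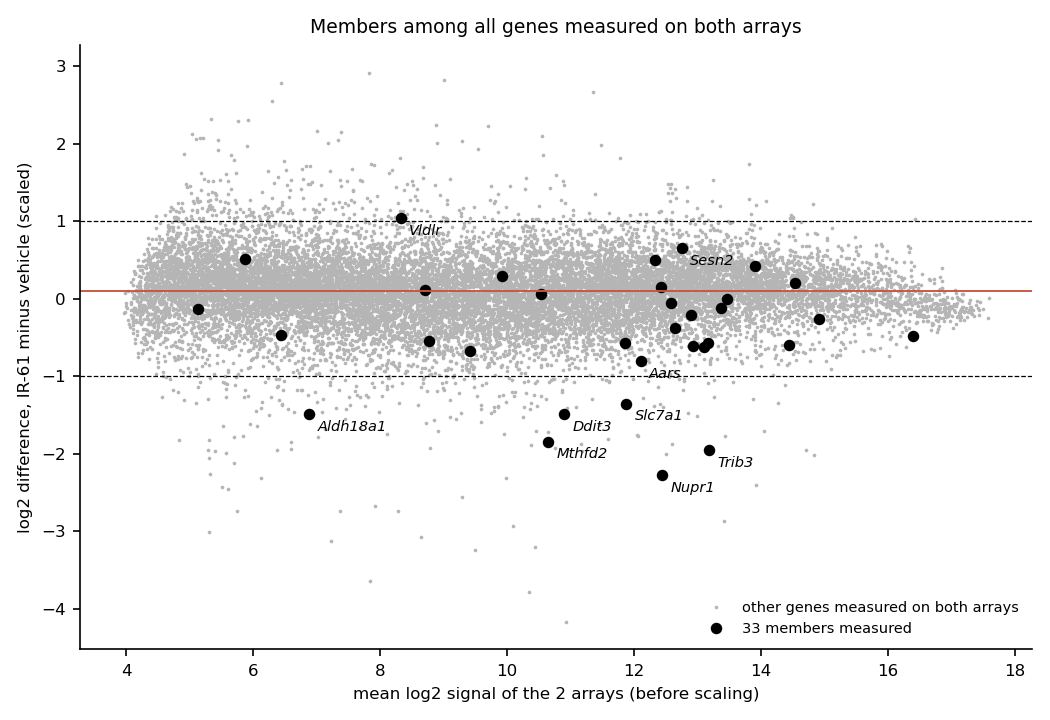
Difference on the log2 scale, IR-61 minus vehicle after scaling (y axis), against the mean log2 signal of both arrays (x axis) for the 16885 measured genes (grey) and the 33 measured members (black), with the all-gene median of 0.10 as a red line and 2-fold limits dashed. The 6 members below the lower limit lie apart from the bulk of genes of like signal, and only *Vldlr* is above the upper one.

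In the serine, glycine and one-carbon pathway, the folate enzyme gene *Mthfd2* was lower by far more than the genes that make serine. *Mthfd2*, a mitochondrial methylenetetrahydrofolate dehydrogenase, read 2569 with vehicle and 1006 with IR-61, a difference of −1.84 ± 0.16 (3.58-fold lower, number 41 from the largest fall). *Phgdh*, the first enzyme of serine synthesis, read 730 and 644, a difference of −0.67 ± 0.23 (1.59-fold lower), and its second probe gave −0.77. The next enzymes of that route were near 0 on their brightest probe, *Psat1*, the phosphoserine aminotransferase, at −0.05 and *Psph*, the phosphoserine phosphatase, at 0.15, though their second probes gave −0.47 and −0.44. *Shmt2*, the mitochondrial hydroxymethyltransferase that turns serine to glycine, was at −0.55 ± 0.23. The median of the 5 genes was −0.55.

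Of the enzymes of asparagine, proline and the transsulfuration route, *Asns* and *Aldh18a1* were lower, and the transsulfuration genes were not resolved from 0. *Asns*, asparagine synthetase, a classical ATF4 target whose promoter window is printed above, read 8178 with vehicle and 7542 with IR-61, a difference of −0.61 ± 0.09 (1.52-fold lower). *Aldh18a1*, which makes the first committed intermediate of proline synthesis, read 167 and 83.4, a difference of −1.49 ± 0.23 (2.80-fold lower), at a signal where spots of the same probe vary more. The next proline enzyme, *Pycr1*, had no matched probe. For transsulfuration, *Cbs* was at 0.11 ± 0.23, and *Cth*, which completes cysteine synthesis, read 41.6 and 83.2 on one dim probe (0.51 ± 0.38) and gave −0.28 ± 0.46 on the other, so neither was measured well enough to give a direction. The median of the 4 measured genes was −0.25.

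Of the 5 amino acid transporter genes, 4 were lower, the arginine and lysine carrier most of all. *Slc7a1*, the cationic amino acid transporter CAT1, read 5104 with vehicle and 2801 with IR-61, a difference of −1.35 ± 0.09 (2.56-fold lower, number 105 from the largest fall). *Slc3a2*, the heavy chain CD98hc shared by several transporters, read 9237 and 8387, a difference of −0.63 ± 0.09. *Slc38a2*, the sodium-coupled neutral amino acid transporter SNAT2, was at −0.57, and *Slc7a11*, the cystine carrier xCT that pairs with CD98hc, was dim, at 86.2 and 87.5, with a difference of −0.47 ± 0.23. *Slc7a5*, the leucine carrier LAT1 and another partner of CD98hc, gave opposite answers on its probes: the brighter one went from 745 to 1276 (0.29 ± 0.19) and the dimmer one from 133 to 72.0 (−1.37 ± 0.23). The median of the 5 was −0.57.

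All 5 aminoacyl-tRNA synthetase genes, whose products charge tRNAs in the cytosol, had negative differences, but small ones. *Aars*, the alanyl enzyme, read 4931 with vehicle and 3961 with IR-61, a difference of −0.80 ± 0.09 (1.75-fold lower), and was the only one past 1.5-fold. The asparaginyl *Nars* was at −0.38, the glycyl *Gars* at −0.26, the seryl *Sars* at −0.21 and the tryptophanyl *Wars* at −0.01. Their median was −0.26. In signal before scaling 4 of the 5, all but *Aars*, were higher with IR-61, so the sign for those 4 was set by the scaling. All 5 were below the all-gene median, *Wars* by 0.11, and *Wars* alone crossed it under an alternative.

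Of the secreted factors and the receptor, *Gdf15* and *Vldlr* were higher, *Stc2* was not resolved from 0 and *Fgf21* was not measured. *Gdf15*, a secreted stress cytokine, read 11290 with vehicle and 21206 with IR-61, a difference of 0.42 ± 0.09 (1.34-fold higher). *Vldlr*, the very low density lipoprotein receptor, a target of ATF4 in other settings, read 189 and 545, a difference of 1.04 ± 0.23 (2.06-fold higher), which was under 2-fold with median scaling and with normexp. Its second probe stayed near background on both arrays. *Stc2*, a secreted glycoprotein, was dim at 31.2 and 39.8, with a difference of −0.14 ± 0.46. *Fgf21*, a hormone that many tissues release in mitochondrial stress, did not reach the well-above-background flag on either array, at 2.85 and 3.44 against a lowest signal well above background of 12.8 and 15.0, and is given no fold. The median of the 3 measured genes was 0.42.

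The 7 members with 2 measured probes each had the lower value on the dimmer probe. The second probe minus the brightest had a median of −0.58, in 7 of 7 genes negative, while over all 4160 genes with several measured probes it was negative in 65.6%, with a median of −0.16. The gap was widest for *Slc7a5* and smallest for *Phgdh*. *Slc7a5*, *Psph* and *Cth* had opposite signs on their probes, and for *Slc7a5* and *Psph* the mean over probes turned the difference negative, to −0.54 and −0.14. None of the 6 members past 2-fold on the lower side had a second measured probe.

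**Figure D3:**
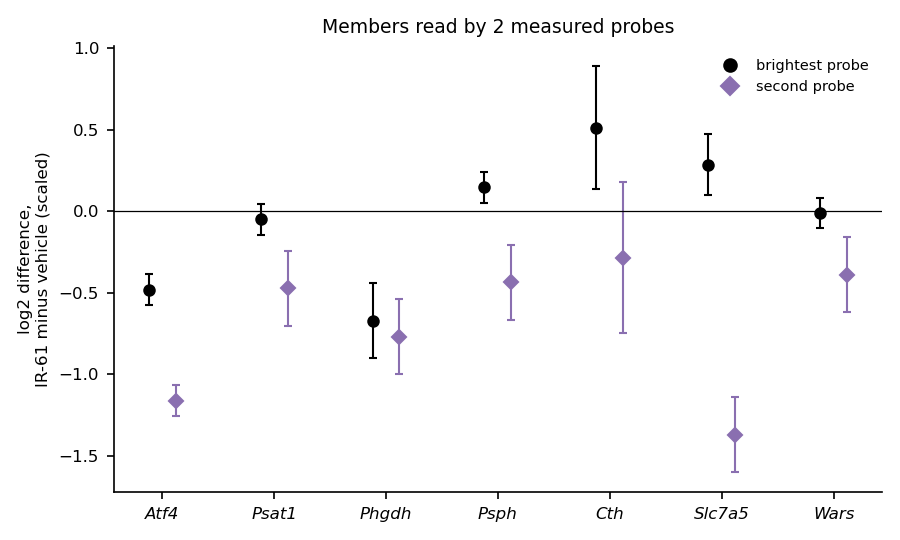
Scaled log2 difference, IR-61 minus vehicle (y axis), for the brightest probe (black circles) and the second probe (purple diamonds) of the 7 members read by 2 measured probes (x axis), with bars for the SD derived from repeated spots. The second probe is the lower one in all 7, and the bars of the probes meet for *Phgdh* and *Cth* but not for the other 5 genes.

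Members with and without the TGATGNAA core in their promoter window had similar medians. The 8 measured members with it had a median of −0.54, 6 lower and 2 higher, and ranged from *Nupr1* at −2.28 to *Vldlr* at 1.04. The 20 with a promoter in the table and no match had a median of −0.52, 14 lower and 6 higher, from *Mthfd2* at −1.84 to *Sesn2* at 0.65. The 5 measured members with no promoter in the table had a median of −0.01. The search covered only 250 bases before to 50 after each listed start. A member without a match there can hold one elsewhere, so the 20 are not a group without ATF4 sites. Of the 6 members past 2-fold on the lower side, 2 held the letters, *Nupr1* and *Trib3*. Among the other pathway genes described next, 93 had a promoter in the table and 10 of these held the letters (10.8%).

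Other genes of the same pathways, in 6 lists of 120 genes, lay closer to the all-gene median than the members. Members and lists were chosen with earlier results of these data known, so this contrast only describes them. Of 116 measured, 66 were lower and 50 higher, with a median of −0.04. A fall of 2-fold or more was found in 4 (3.45%, against 1.39% of all measured genes) and of 1.5-fold or more in 11 (9.48%, against 5.69%). A rise of 2-fold or more was found in 1 (0.862%, against 1.99%) and of 1.5-fold or more in 8 (6.90%, against 9.79%). The median of the genes upstream of ATF4 was near that of all genes: the 17 genes for eIF2 kinases, eIF2, eIF2B and their regulators had a median of 0.02. By 1.5-fold or more, 2 were lower (11.8%, against 5.69% of all genes) and 2 higher (11.8%, against 9.79%). Among the kinase genes, *Eif2ak3*, which encodes the endoplasmic reticulum sensor PERK, was at 0.59 and *Eif2ak4*, which encodes the amino acid sensor GCN2, at 0.50, while *Eif2ak2* (PKR) was at 0.21 and *Eif2ak1* (HRI) at −0.24. *Impact*, which encodes an inhibitor of GCN2, was the highest of that list, from 5604 to 13325 (0.76), and *Eif2b5*, the catalytic subunit of the eIF2 exchange factor, the lowest, from 856 to 734 (−0.71). Kinase activity and eIF2 phosphorylation were not measured.

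The 18 other cytosolic synthetases and their scaffold genes had a median of −0.18, from *Mars1*, the methionyl enzyme, which went from 1351 to 755 (−1.33 ± 0.16, 2.51-fold lower), to *Aimp2*, a scaffold of the synthetase complex, at 0.39. The 16 measured mitochondrial synthetases had a median of 0.06, from *Iars2* at −0.72 to *Wars2*, which went from 100 to 324 (1.20 ± 0.23). Relative to the all-gene median, the cytosolic synthetases among the members thus stood at −0.36. The other cytosolic synthetases with their scaffold genes stood at −0.27, and the mitochondrial synthetases at −0.04. The 29 other enzymes of amino acid and folate metabolism had a median of −0.08, and the lowest of them was *Bcat1*, a branched-chain aminotransferase, at −0.69. The genes of mitochondrial folate metabolism were split. *Aldh1l2*, dim at 34.4 and 94.9, at 0.98 ± 0.38 and *Mthfd2l* at 0.84 ± 0.19 had positive differences. *Mthfd1l* at −0.30 ± 0.23, and *Mthfd2* at −1.84 and *Shmt2* at −0.55 among the members, had negative ones.

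The 15 other amino acid transporters measured on both arrays had a median of −0.02, from *Slc36a4* at −0.64 to *Slc7a3*, a relative of *Slc7a1*, at 0.86 ± 0.38 from a dim probe. A further 2 were well above background with IR-61 only: *Slc7a10*, a neutral amino acid carrier, at 2.96 and 79.1, was at least 4.41-fold higher, and *Slc43a1*, at 9.21 and 23.4, at least 1.31-fold higher. The 21 other genes linked to ATF4 or to endoplasmic reticulum and oxidative stress had a median of −0.16, and 3 of them were lower by 2-fold or more. These were *Jdp2*, a bZIP repressor, from 2978 to 1593 (−1.39 ± 0.09), *Sqstm1*, the autophagy receptor p62, from 8154 to 5580 (−1.04 ± 0.09), and *Nfe2l1*, a factor that raises proteasome genes, from 127 to 88.2 (−1.01 ± 0.23). *Herpud1*, of endoplasmic reticulum protein degradation, was at −0.72. *Sesn1*, a relative of *Sesn2*, was the highest of the list, from 6308 to 16391 (0.89 ± 0.09), and *Sesn3*, at 271 and 522, had a difference of 0.46 ± 0.23, so all 3 sestrin genes had positive differences.

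**Figure D4:**
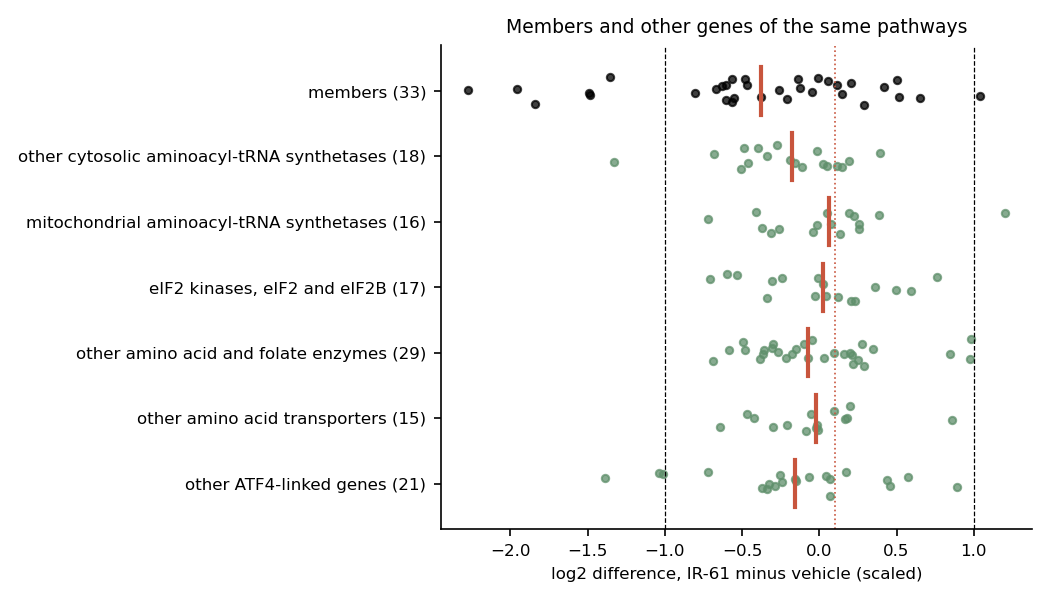
Scaled log2 difference, IR-61 minus vehicle (x axis), for each measured gene of the members (black) and of 6 lists of other pathway genes (green, number measured in brackets), with list medians as red bars, the all-gene median dotted and 2-fold limits dashed. The median bar of the members, at −0.38, is the lowest, and 6 member points and 4 of the other 116 are beyond the lower limit.

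The members were mostly bright. Of the 33, 24 had a mean log2 signal of 10 or more, 7 lay between 6 and 10 and 2 below 6. In the brightest class the median was −0.43 for members and 0.10 for all 7505 genes, and in the middle class −0.47 and 0.08. Housekeeping genes, 10 in all, had a median of −0.13, which is −0.23 relative to the all-gene median, and 8 of them lay below that median. They ranged from *Ywhaz* at −0.48 to *Hprt* at 0.80, so some single housekeeping genes differed as much as many members did. Whether the position of the members has a common source with that of these genes was not tested.

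The direction of the furthest falls held under each of 10 settings. Over these ways to scale, correct and average the same 2 arrays, *Nupr1* ranged from −2.36 to −1.79, *Trib3* from −2.04 to −1.47, *Mthfd2* from −1.92 to −1.35 and *Ddit3* from −1.57 to −1.003. *Aldh18a1* ranged from −1.58 to −0.999 and *Slc7a1* from −1.44 to −0.87, the upper end being the value without scaling in each of the 6. Of the 33 members, 22 were below the all-gene median under all 10 settings, 7 above it under all 10, and 4 (*Ddit4*, *Psph*, *Slc7a5* and *Wars*) on both sides. The settings read the same spots, so a steady side gives no direction to genes within the spot error. These include *Cth* and *Cbs* among the 7 and *Stc2* among the 22.

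**Figure D5:**
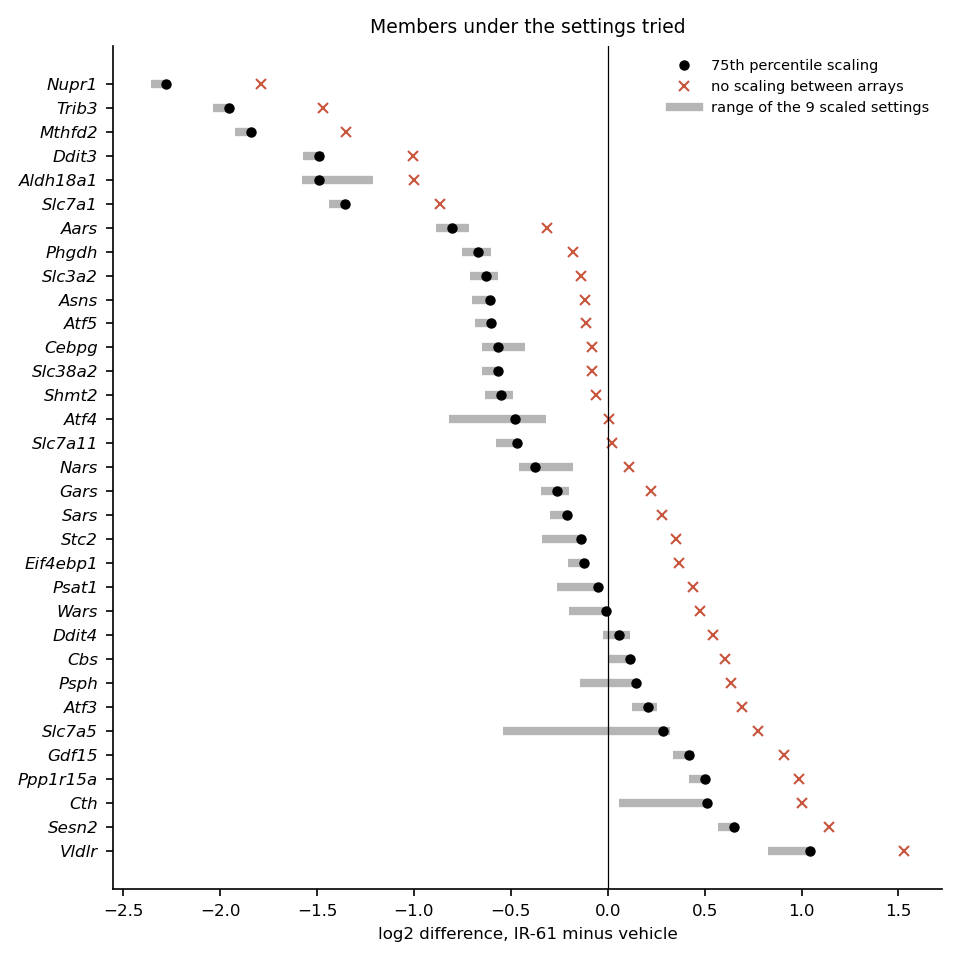
Log2 difference, IR-61 minus vehicle (x axis), of each measured member with 75th percentile scaling (black), its range over 9 settings that scale the arrays (grey bar) and its value without scaling (red cross). The 6 lowest genes keep negative values in all 10 settings, the crosses sit to the right of the black points throughout, and the longest bar is that of *Slc7a5*.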

How the data were processed

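Total RNA of 1 vehicle culture and 1 IR-61 culture was hybridized to 1 Agilent array each. The authors deposited spot intensity files, background-subtracted by Agilent Feature Extraction (version 11.0.1.1 per the file headers, 11.0.0.1 per the submitters' processing notes) and a table of log2 values per probe, which the authors made by steps not given in the sources used here and which followed the scanner log2 values at r = 0.9995 and 0.9988.

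Control spots and spots flagged as outliers (124 and 139) were left out, spots of a probe were averaged on the log2 scale and each array's 75th percentile was subtracted. Of 39419 probes, 27224 were named by RefSeq accession through a gene table of GRCm38.p6, used for names only. A gene took its brightest unsaturated probe, and no spot was saturated. Probes well above background were 77.6% with vehicle and 81.2% with IR-61. A gene well above background on 1 array only had a bound, set by the lowest signal well above background on the other. Errors came from the SD between spots in 3 signal classes (for log2 signals of 10 or more, 0.070 and 0.063).

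No test was run, because each condition had 1 array, and the number of arrays limits the precision. The members and lists were chosen with earlier results of these data known. Named in full were members past 1.5-fold, *Atf4*, members with only a bound, and from each further list the gene highest and the gene lowest with IR-61, of which 1 is not reported here; the other members were named because the set is small, and others of the lists after their values were seen. Alternatives were other scalings (median, detected probes, quantile, loess, none), normexp with offset 50, the deposited log2 values, outlier spots kept, the mean over probes and no filter on dim probes. The steps were tested on simulated arrays. Python 3.11.15 (pandas 2.3.3, statsmodels 0.14.6), R 4.3.3 and limma 3.58.1 were used.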

Additional observations from a re-analysis of the deposited data

How the results depend on the processing

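The count of 6 members lower by 2-fold or more was 6 under the other scalings, normexp, the deposited values, outlier spots kept and the mean over probes, and 4 without scaling between the arrays; it was not recomputed with no filter on dim probes. Without scaling, which moved the all-gene median by 0.49, the median of the members was 0.11, 3 members were higher by 2-fold, and 6 were lower and 9 higher by 1.5-fold, while over all genes 72 were lower and 2156 higher by 2-fold and 193 and 8519 by 1.5-fold. With median scaling or normexp 0 members were higher by 2-fold, and 1 was higher by 1.5-fold with median scaling, quantile normalization or the deposited values. The balance of all genes past 2-fold turned with the scaling, from 235 lower and 336 higher to 295 and 249 with the median, 279 and 257 after quantile normalization, 279 and 255 after loess and 281 and 266 in the deposited values. It was 149 and 124 with normexp, where 865 were higher by 1.5-fold. With no filter on dim probes it was 440 and 921, where 2782 were higher by 1.5-fold, and the secreted factors with the receptor stood 0.042 above the all-gene median because *Fgf21* then entered.

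Normexp moved the all-gene median by −0.13. Relative to that median, under normexp the members were at −0.29, transcription factors at −0.40, serine, glycine and one-carbon enzymes at −0.46, transporters at −0.54, synthetases at −0.17 and secreted factors with the receptor at 0.48. The feedback regulators were at 0.0015, other cytosolic synthetases at −0.12 and mitochondrial synthetases at 0.062. The list of eIF2 kinases, eIF2, eIF2B and their regulators was at 0.071. Other enzymes were at −0.072, other transporters at −0.015 and other ATF4-linked genes at −0.14. The feedback, mitochondrial and eIF2 lists thus changed sides. The cause was not tested. Of the differences of single members recomputed under these alternatives, 252 stayed within the spot SD of the reported value and 45 did not. Those 45 include all 33 measured members without scaling, where every gene shifts by the same 0.49. The rest of the 45 came from normexp or the mean over probes, and the latter cannot move a gene with 1 measured probe.

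No paired analysis was possible because there was 1 array of either condition, and no result rests on a test. The files hold no measure of spread between cultures, and spots below a log2 signal of 6 varied with an SD of 0.35 with vehicle and 0.30 with IR-61, so differences of dim genes such as *Cth* and *Stc2* cannot be resolved.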
